A study of Rattus norvegicus with 6 samples.

Results

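The haem-handling transcripts described here were haptoglobin (Hp), both haem oxygenases (Hmox1 and Hmox2) and beta globin (Hbb and Hbb-b1), 5 genes in all. They were found as every probe set that the array's annotation gives to one of these genes, alone or jointly with other haemoglobin genes, which came to 8 of 8740 probe sets. One probe set is a group of short oligonucleotides that together read 1 transcript. The genes were selected on their differences between the strains in these same 6 arrays, so those differences are given as a description, with no p-value. A further probe set names Hbb beside ribosomal RNA and other unrelated genes and was left out.

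Whole adrenal glands came from the Spontaneously Hypertensive Rat (SHR), an inbred strain with high blood pressure (3 arrays), and from the normotensive Wistar-Kyoto rat (WKY) usually set beside it (3 arrays). Total RNA was read on Affymetrix RG-U34A arrays, 1 sample per array. The labels name no treatment, age or sex, and do not say whether a sample is 1 animal or a pool, so every p-value rests on array-to-array spread that may be technical. Of 21 listed genes of the adrenal cortex and medulla, 17 were on the array and all 17 were bright enough to be tested. Star, which brings cholesterol into mitochondria, averaged 74944 ± 17180 in SHR and 85421 ± 17100 in WKY (intensity, arbitrary units, SD, n = 3 each).

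Haem, the iron-bearing ring of haemoglobin and of the cytochromes P450 that make steroids, is built in a pathway whose first step is ALA synthase (Alas1 in most tissues, Alas2 in red cell precursors). Haem oxygenases open the ring and release iron, carbon monoxide and biliverdin. HO-1 (Hmox1) is induced by haem and oxidative stress, while HO-2 (Hmox2) is made at a steadier level. Haptoglobin is a plasma protein made mainly by the liver, and also by fat, that binds free haemoglobin so that macrophages can clear it, and it rises in inflammation. In RefSeq (GRCr8) Hp lies at chr19:54449151-54453701, Hmox1 at chr19:13452365-13479823 and Hmox2 at chr10:11303512-11337640. Beta globin in a gland that is not blood-forming is carried mainly by the red cells and reticulocytes of its blood.

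Rat beta globin is a cluster of near-identical genes on the minus strand of chromosome 1, and the sequences just before the Hbb and Hbb-b1 starts are shown because probe sets of both genes differed between the strains in the same direction. Each is the 250 bases before the start given by RefSeq (build GRCr8), at chr1:167663722-167663971 for Hbb and chr1:167643521-167643770 for Hbb-b1. The Hbb-b1 start in that table lies inside the gene's annotated span, chr1:167636064-167643577, so part of the sequence printed falls within it. Capitals mark CCAAT and CACCC boxes and the letters ATAAA of the TATA region, searched on both strands.

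Hbb: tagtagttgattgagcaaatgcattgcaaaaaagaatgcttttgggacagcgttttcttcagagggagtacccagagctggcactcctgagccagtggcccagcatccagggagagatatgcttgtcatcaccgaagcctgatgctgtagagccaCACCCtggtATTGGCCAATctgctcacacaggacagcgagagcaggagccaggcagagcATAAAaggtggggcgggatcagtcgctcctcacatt
Hbb-b1: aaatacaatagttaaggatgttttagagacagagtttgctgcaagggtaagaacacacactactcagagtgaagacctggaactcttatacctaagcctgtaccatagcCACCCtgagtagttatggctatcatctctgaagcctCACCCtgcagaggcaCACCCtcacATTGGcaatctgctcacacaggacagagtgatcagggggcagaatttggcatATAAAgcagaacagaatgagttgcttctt

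In an alignment 164 positions were identical, 65.6% of the length. Hbb held CCAAT on both strands, as adjoining copies whose first bases lay at -81 and -86 from the start, while Hbb-b1 held 1 copy at -81, on the opposite strand. Hbb had 1 CACCC, at -95, and Hbb-b1 had 3, at -141, -105 and -90. These motifs are common: of 33469 rat promoters of the same length in the table used, 34% held CCAAT, 49.2% CACCC and 39.3% ATAAA on either strand.

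Haptoglobin was 3.58-fold brighter in SHR by the ratio of the strain means. Its probe set (K01933_at) read 11617.4, 9466.3 and 14521.3 in SHR replicates 1 to 3, against 2937.1, 4199.7 and 2819.0 in WKY replicates 1 to 3. Every SHR array lay above every WKY array, and the dimmest SHR array was over double the brightest WKY array. The means were 11868 ± 2537 in SHR and 3318.6 ± 765.3 in WKY (SD, n = 3 each). Values were compared as log2(intensity + 181.5), where the added constant understates the change of dim probe sets, and on that scale Hp differed by 1.78 ± 0.21 (SHR minus WKY, SE). The spread was alike in both strains, with the brightest array 1.53 times the dimmest in SHR and 1.49 times in WKY.

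The hybridization times in the array headers fell into 2 runs, the first with SHR replicate 1 and all 3 WKY arrays and the second with SHR replicates 2 and 3. Within the first run Hp differed by 1.78, the same as over all 6 arrays. The second run held no WKY array and so gave no value. Leaving out each array in turn moved the difference between 1.63, without SHR replicate 3, and 1.96, without WKY replicate 2.

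**Figure D1:**
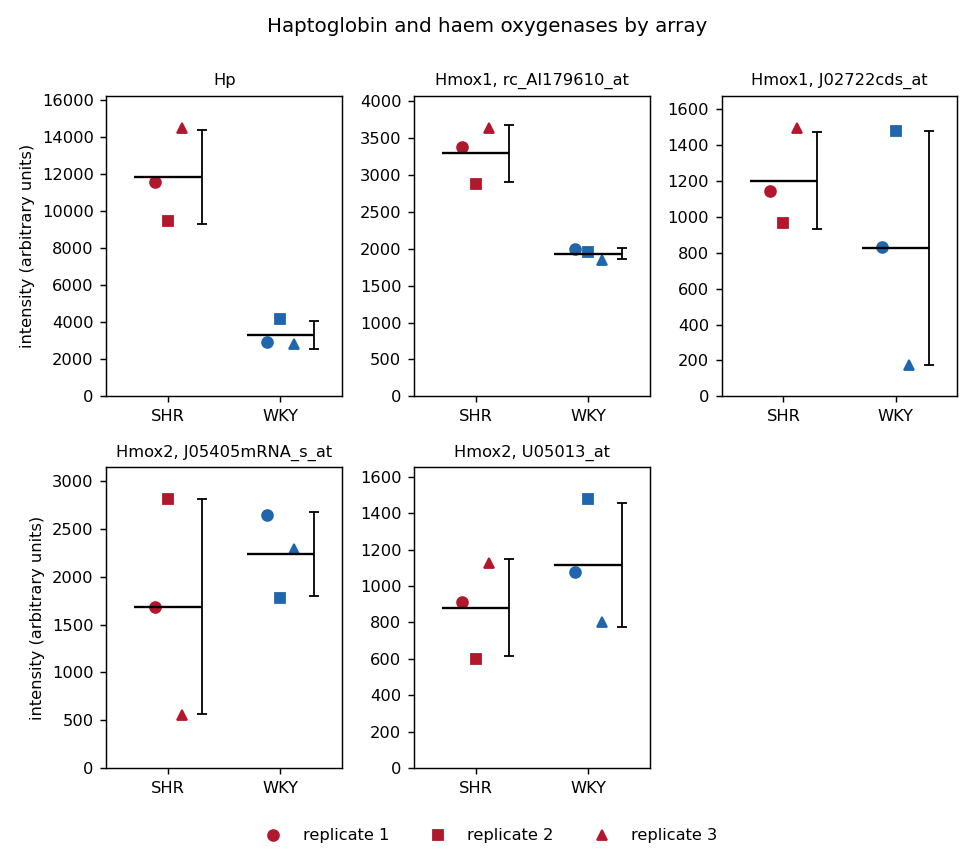
Intensity (arbitrary units, linear axis from 0) of the Hp, Hmox1 and Hmox2 probe sets on each array, SHR in red at the left and WKY in blue at the right of each panel. Marker shape gives the replicate number, bars the mean and whiskers the SD (n = 3). The strains are apart for Hp and for the brighter Hmox1 probe set and overlap in the other 3.

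Haem oxygenase 1 was read by 2 probe sets, and the brighter one (rc_AI179610_at) separated the strains. It read 3377.8, 2880.7 and 3641.9 in SHR replicates 1 to 3, against 1998.4, 1964.4 and 1848.8 in WKY replicates 1 to 3. The WKY arrays lay within 1.08-fold of each other, and the lowest SHR array was above all of them. The means were 3300.1 ± 386.5 in SHR and 1937.2 ± 78.42 in WKY (SD, n = 3 each), a log2 difference of 0.71 ± 0.16 (SE). Within the first hybridization run it was 0.75.

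The dimmer Hmox1 probe set (J02722cds_at) gave a log2 difference of the same sign with overlapping strains. It read 1143.6, 966.2 and 1495.7 in SHR, against 830.0, 1478.8 and 174.2 in WKY. WKY replicate 3 was below the constant of 181.5 added before taking logs, and WKY replicate 2 was nearly as bright as the brightest SHR array. The log2 difference was 0.70 ± 0.51 (SE) over all arrays. It was 0.08 without WKY replicate 3 and 1.19 without WKY replicate 2, so its size depended on single WKY arrays.

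Hmox2 stood lower in SHR by both of its probe sets, with overlap in each. J05405mRNA_s_at read 1688.5, 2808.9 and 558.3 in SHR, against 2649.5, 1776.0 and 2290.4 in WKY. The brightest and the dimmest of the 6 arrays were both SHR, which gave SHR a 5.03-fold range and WKY a 1.49-fold one. The log2 difference was -0.58 ± 0.46 (SE). It was -0.02 without SHR replicate 3 and -1.025 without SHR replicate 2. U05013_at read 912.0, 599.6 and 1129.3 in SHR, against 1075.4, 1476.1 and 800.3 in WKY, a log2 difference of -0.29 ± 0.29 (SE). SHR replicate 3 was the highest SHR array in this probe set and the lowest in the other, so the 2 readings of Hmox2 did not rank the arrays alike. Without SHR replicate 2 the U05013_at difference was -0.08, and without WKY replicate 2 it was -0.10.

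Beta globin was dimmer in SHR in all 3 of its probe sets, with no overlap between the strains in any. The Hbb probe set (M94918mRNA_f_at) read 36262.7, 35090.4 and 33193.6 in SHR replicates 1 to 3, against 81461.4, 93729.9 and 40464.2 in WKY replicates 1 to 3. The SHR arrays lay within 1.09-fold of each other, whereas WKY replicate 3 sat close above SHR and far below the other WKY arrays. The means were 34849 ± 1549 in SHR and 71885 ± 27890 in WKY (SD, n = 3 each), and the log2 difference was -0.95 ± 0.28 (SE).

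The Hbb-b1 probe set (M94919mRNA_f_at) differed in the same direction. It read 16270.1, 17865.7 and 19890.5 in SHR, against 33930.9, 36295.2 and 22174.0 in WKY, with WKY replicate 3 again the lowest of its strain. The log2 difference was -0.74 ± 0.19 (SE). Without WKY replicate 3 the differences were -1.32 for Hbb and -0.96 for Hbb-b1, without WKY replicate 2 they were -0.72 and -0.61, and within the first hybridization run they were -0.90 and -0.88.

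The probe set shared by 4 beta globin genes (Hbb, Hbb-b1, Hbb-bs and Hbbl1; rc_AI179576_s_at) gave a smaller difference and a different lowest WKY array. It read 70626.0, 70250.8 and 64376.9 in SHR, against 74371.4, 91460.9 and 79830.4 in WKY. WKY replicate 3 was here in the middle of its strain, and WKY replicate 1 came closest to SHR. The log2 difference was -0.25 ± 0.11 (SE), with means of 68418 ± 3505 in SHR and 81888 ± 8728 in WKY (SD, n = 3 each). This probe set stood at 55.4% to 89.3% of the brightest value on its array, and Hbb at 28.6% to 91.5%. Whether such bright probe sets compress differences was not tested. In Affymetrix names the ending f_at marks probes that can match several members of a gene family and s_at probes common to several transcripts, so none of the 3 reads 1 beta globin gene with certainty.

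Alpha globin, which pairs with beta globin in haemoglobin, differed in the same direction. The probe set shared by Hba-a1 and Hba-a2 (X56325mRNA_s_at) read 54174.0, 50330.4 and 53134.5 in SHR, against 64886.1, 75729.4 and 73910.5 in WKY. Its strains did not overlap, and its log2 difference of -0.44 ± 0.10 (SE) did not pass in limma's moderated test over all probe sets (adjusted p = 0.0764). WKY replicate 3 was not low here. Other globin probe sets were far dimmer: the embryonic globin Hbe1 read 681.5 to 1020.6 in SHR and 633.5 to 875.3 in WKY, and Hba-a3 read 536.2 to 789.4 in SHR and 491.4 to 625.6 in WKY.

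**Figure D2:**
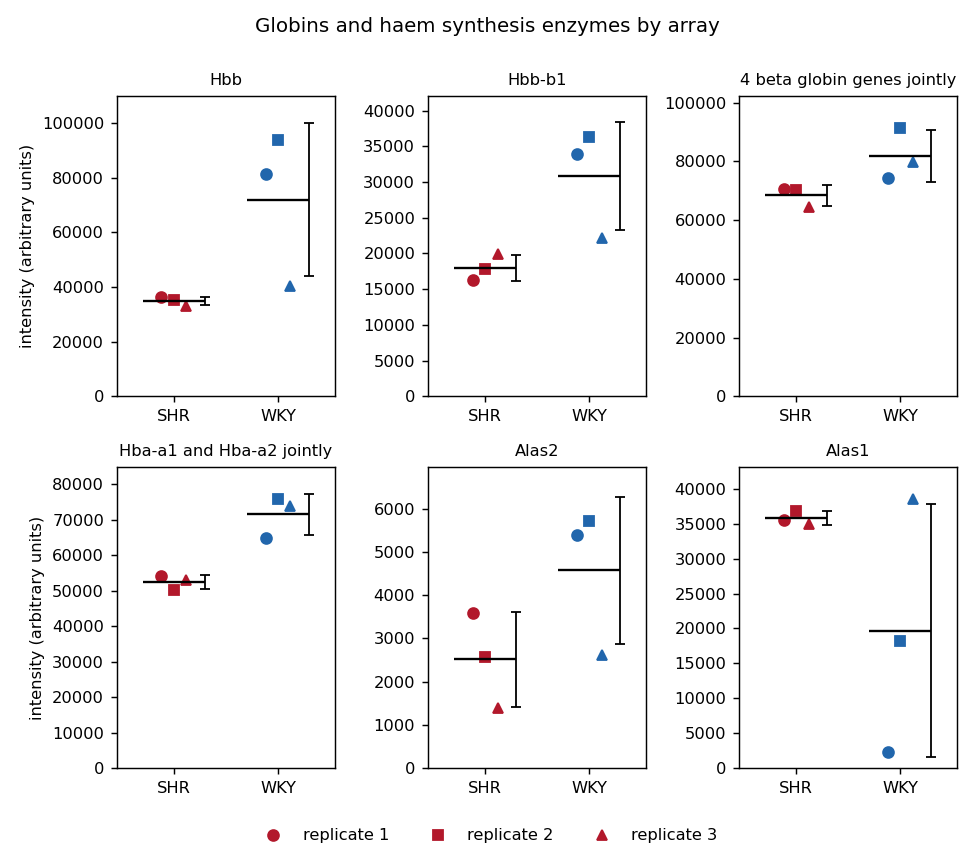
Intensity (arbitrary units, linear axis from 0) of the 3 beta globin probe sets, the shared alpha globin probe set, Alas2 and Alas1 on each array, SHR in red at the left and WKY in blue at the right. Marker shape gives the replicate number, bars the mean and whiskers the SD (n = 3). WKY replicate 3 is the lowest WKY array for Hbb, Hbb-b1 and Alas2 but not for the joint probe sets, and Alas1 spreads widely within WKY.

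In whole-gland RNA fewer cells of a type and less RNA per cell cannot be told apart, and this holds for the globins in particular. Of 22 listed red cell genes, 8 besides Hbb and Hbb-b1 were on the array. Their summed intensity was 9250.9 to 13069 in SHR and 11558 to 15621 in WKY, and 0 of the 8 were listed at 0. Of the 6 of them bright enough to be tested, 0 passed in limma, 1 had an unadjusted p under 0.05, and the median log2 difference was -0.23. That one was Epb41, a protein of the red cell membrane skeleton that other cells also make, at -0.73 ± 0.24 (SE; limma adjusted p = 0.204). Of the 6, 4 were below 0 and 2 above. Car2 was at -0.28 ± 0.22 and Rhd at -0.185 ± 0.196 in its brightest probe set (SE; limma adjusted p = 0.617 and 0.725), and Alas2 is given below. A second Rhd probe set was opposite in sign, at 0.019 ± 0.217 (SE; limma adjusted p = 0.98). Slc4a1, the anion exchanger of red cells, was at 0.02 ± 0.19 (limma adjusted p = 0.980). Red cell content as a part of the globin difference was not tested further.

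Over the whole table, limma called 102 of 5244 tested probe sets (1.95%) at an adjusted p under 0.05. All 8 haem-handling probe sets were bright enough to be tested, and 1, that of Hp, was called. The strains did not overlap in 5 of the 8, 2 with SHR above and 3 with SHR below, against 20.7% of all tested probe sets. Since these genes were chosen by that contrast, nothing is read from either count. With the hybridization run as a block, a fit that rests on SHR replicate 1 alone against WKY, 0 of the 8 were called, and without WKY replicate 3 there were 3, Hp, Hbb and Hbb-b1.

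**Figure D3:**
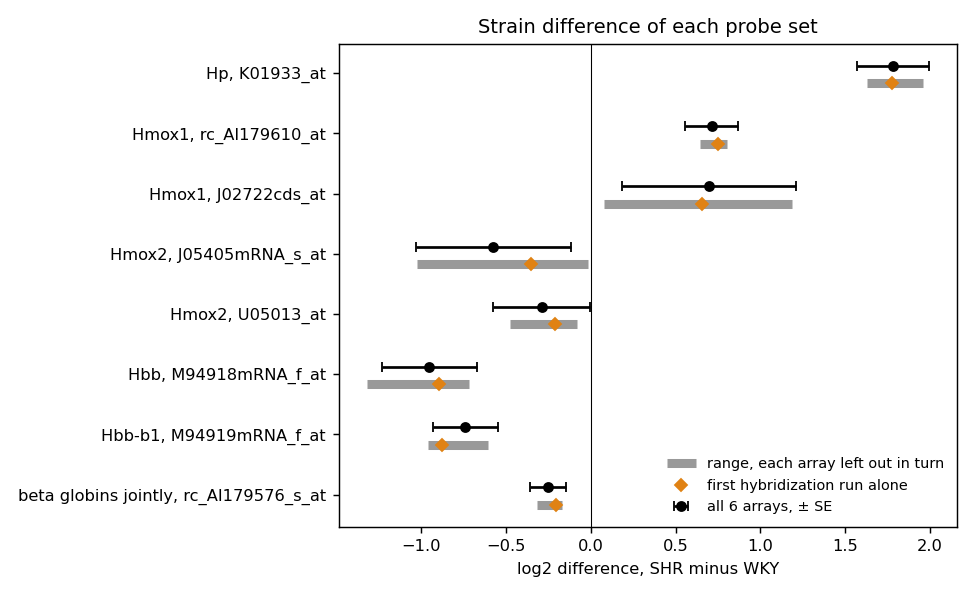
Log2 difference, SHR minus WKY, of each probe set. Black points give all 6 arrays with the SE, grey bars the range when each array is left out in turn, and orange diamonds the first hybridization run alone. Every Hp and Hmox1 value is above 0 and every Hmox2 and beta globin value below 0. The grey bars reach closest to 0 for the dimmer Hmox1 probe set and for Hmox2.

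Haem synthesis genes gave no call. Counting genes, each by its brightest probe set among those tested, 52 of 3144 genes (1.65%) were called over the whole table, and 0 of 7 measured haem synthesis genes were, with 0 at an unadjusted p under 0.05 in limma and a median log2 difference of 0.08. The median over all genes tested was -0.01. The share of all genes at an unadjusted p under 0.05 was not counted, so nothing is read from such counts in any list. Alas1, the rate-limiting enzyme outside red cells, read 35554.9, 36913.4 and 34917.5 in SHR, against 2304.5, 18222.9 and 38492.7 in WKY (J03190_at). SHR varied by 1.06-fold and WKY by 16.7-fold, the brightest of all 6 arrays and the dimmest both being WKY. The second Alas1 probe set (J03190_g_at) ranked the WKY arrays the same way, at 4457.6, 8980.4 and 19163.6, with 18219.5, 17477.3 and 17501.4 in SHR. The log2 differences were 1.57 ± 0.84 and 0.93 ± 0.43 (SE; limma adjusted p = 0.448 and 0.393).

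Alas2, the red cell form, read 3595.9, 2568.9 and 1393.1 in SHR, against 5400.5, 5722.5 and 2624.1 in WKY. As for Hbb, WKY replicate 3 was the lowest WKY array, but the strains overlapped (log2 difference -0.83 ± 0.38, SE; limma adjusted p = 0.389). Urod, the uroporphyrinogen decarboxylase, was at -0.27 ± 0.13 and Abcb6, a porphyrin transporter, at 0.36 ± 0.23 (SE; limma adjusted p = 0.395 and 0.528).

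Haem breakdown beyond the oxygenases was measured by 2 genes, and 0 were called, with 1 at an unadjusted p under 0.05 in limma. Blvra, the biliverdin reductase that turns biliverdin into bilirubin, read 4512.5, 4957.4 and 4981.1 in SHR, against 9199.4, 6364.6 and 6437.9 in WKY. The strains did not overlap, and the log2 difference was -0.57 ± 0.17 (SE; limma adjusted p = 0.176). Por, which passes electrons to haem oxygenases and P450s, was at 0.18 ± 0.16 (SE; 0.675). Hpx, the plasma protein that binds free haem as haptoglobin binds haemoglobin, read 1977.6 to 3011.3 in SHR and 2050.0 to 3094.3 in WKY, a log2 difference of 0.08 ± 0.22 (SE; limma adjusted p = 0.912). No probe set named Cd163, the receptor for haptoglobin bound to haemoglobin, or Blvrb alone.

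Of 24 listed genes of iron transport and storage, 10 were on the array and 8 were tested. No probe set named the ferritin genes Fth1 and Ftl1 or the transferrin gene Tf alone, so these were not measured. Of the 8 tested, 0 were called and 1 had an unadjusted p under 0.05 in limma (median log2 difference -0.08). B2m, listed because its protein partners the iron regulator Hfe and better known as the light chain of MHC class I, was that one, at -0.40 ± 0.16 (SE; limma adjusted p = 0.310). The transferrin receptor gene Tfrc read 1174.5, 1840.1 and 1606.8 in SHR, against 1135.1, 1127.7 and 1080.4 in WKY, with no overlap and a log2 difference of 0.39 ± 0.21 (SE; 0.443). Aco1, which as IRP1 binds iron-responsive RNA elements, was at -0.35 ± 0.16, and Ireb2, the IRP2 gene, at 0.41 ± 0.24 (SE; limma adjusted p = 0.385 and 0.493). The iron exporter gene Slc40a1 was too dim to be tested in both of its probe sets. Slc11a2, an iron importer, was at 0.09 ± 0.17 in its brightest probe set (SE; limma adjusted p = 0.854). Its other tested probe set was opposite in sign, at -0.49 ± 0.28 with no overlap (SE; limma adjusted p = 0.473).

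Hp is an acute phase protein, and 25 genes of that class, Hp included, were on the array. Of the 14 others bright enough to be tested 0 were called, where 1.65% of all genes were, 7 were above 0 and 7 below, 2 had an unadjusted p under 0.05 in limma, and the median log2 difference was -0.02. Those 2 were lower in SHR. The list mixes proteins that rise in inflammation with ones that fall, such as Rbp4 and Ttr. Nothing is therefore read from its signs or its median. Serpina1, the alpha-1 antitrypsin gene, read 1523.7, 327.4 and 1129.4 in SHR, against 2528.2, 2374.1 and 2606.6 in WKY (log2 difference -1.36 ± 0.41, SE; limma adjusted p = 0.167). Rbp4, the retinol carrier, was at -0.84 ± 0.36 (0.353), Ttr, the transthyretin gene, at 0.39 ± 0.19 (0.414) and Cp, the ferroxidase ceruloplasmin, at -0.43 ± 0.30 in its brightest probe set (0.574) and 0.07 ± 0.30 in the other tested one (0.944). Lcn2, the lipocalin 2 gene that neutrophils also express, was too dim to be tested and averaged 605.1 ± 201.0 in SHR and 234.7 ± 265.5 in WKY (SD, n = 3 each), with overlap.

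Regulators known to drive Hp in liver were also without a call. Of 13 tested genes of interleukin 6, STAT3 and C/EBP signalling, 0 were called and 2 had an unadjusted p under 0.05 in limma, with a median log2 difference of 0.03. Both were NF-kappaB genes: Nfkbia, the inhibitor, at -0.80 ± 0.20, and the subunit gene Nfkb1 at -0.57 ± 0.18 (SE; limma adjusted p = 0.108 and 0.193). Cebpb, a factor that binds the Hp promoter in liver, read 16808.2 to 22011.5 in SHR and 16251.8 to 19104.7 in WKY in its brightest probe set (0.19 ± 0.14, SE; limma adjusted p = 0.605). Its second probe set was at 0.31 ± 0.12 (0.311). Cebpd was at 0.03, Stat3 at -0.01 and Il6st, the shared receptor subunit gp130, at -0.05 in their brightest probe sets, with limma adjusted p of 0.969, 0.986 and 0.937. The other tested Stat3 probe set was at 0.86 ± 0.56 and that of Cebpd at 0.17 ± 0.24 (SE; limma adjusted p = 0.547 and 0.806), both with overlap. Cebpa was at -0.84 ± 0.43 and Lif at 0.59 ± 0.37 (SE; limma adjusted p = 0.426 and 0.523). Il6 and the glucocorticoid receptor gene Nr3c1 were too dim to be tested in any of their probe sets.

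Genes that stress and the factor NRF2 induce together with Hmox1 included 2 calls. Of 18 tested, 2 rose, 0 fell and 16 did not pass, where 1.65% of all genes were called. Of the 18, 9 were above 0 and 9 below, and the median log2 difference was 0.00. At an unadjusted p under 0.05 in limma there were 7. Of these, Me1, Gsta4, Gstm1, Hspa1a, Gclc and Taldo1 had a positive difference and Nfe2l2 a negative one. The strains did not overlap in 7 of the 18, the same 7, where 20.7% of all tested probe sets did not overlap. A low p over 3 arrays a strain goes with non-overlap, so the 2 counts are not separate results. The share of all genes at that unadjusted p was not counted, so nothing is read from the 7. Gstm1, a glutathione transferase, was at 0.78 ± 0.16 and Taldo1, of the pentose phosphate pathway, at 0.42 ± 0.13 (SE; limma adjusted p = 0.0608 and 0.183). Me1, the NADP-dependent malic enzyme, averaged 38170 ± 3520 in SHR and 15730 ± 3808 in WKY (SD, n = 3 each), a rise of 1.29 ± 0.18 (SE, log2; limma adjusted p = 0.0125). Gsta4, a glutathione transferase, averaged 2200.7 ± 59.3 in SHR and 827.83 ± 224.1 in WKY, a rise of 1.26 ± 0.21 (limma adjusted p = 0.0271). Both lost their calls with the hybridization run as a block, at 1.39 and 1.23, and with each array left out in turn Me1 passed in 4 of 6 fits and Gsta4 in 1 of 6. Nfe2l2, the NRF2 gene itself, read 2560.7, 1579.4 and 927.6 in SHR, against 4810.4, 2591.5 and 3257.0 in WKY. Its log2 difference was -1.05 ± 0.35 in that probe set and -0.79 ± 0.24 in the other (SE; limma adjusted p = 0.224 and 0.177), with no overlap in either. Nqo1, a classic NRF2 target, was at -0.15 ± 0.30 in the probe set that was tested (SE; limma adjusted p = 0.869), and Gclc, of glutathione synthesis, at 0.66 ± 0.19 (0.155). The heat shock gene Hspa1a read 30618.6, 46681.3 and 84831.0 in SHR, against 22770.8, 21406.5 and 24257.0 in WKY (1.11 ± 0.32, SE; limma adjusted p = 0.147).

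**Figure D4:**
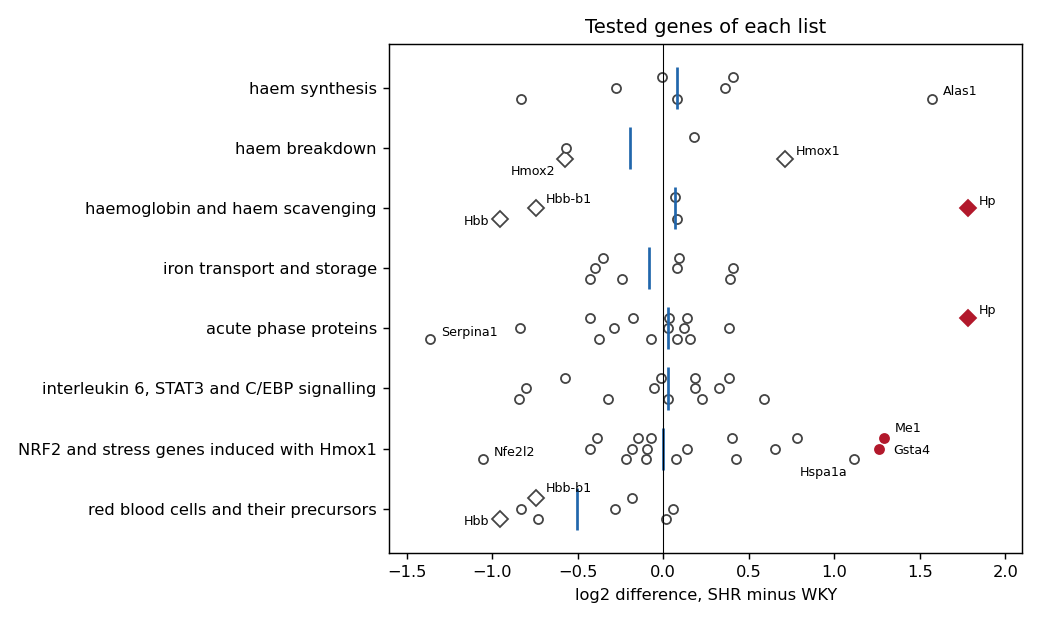
Log2 difference, SHR minus WKY, of single genes (brightest probe set) by list. Diamonds are Hp, Hmox1, Hmox2, Hbb and Hbb-b1, filled red marks genes called by limma at an adjusted p under 0.05, and blue lines give each list's median. Hp stands at the right end of the acute phase row, apart from the other members of that list.

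Haem is also the working group of adrenal P450s, nitric oxide synthases, cyclooxygenases and catalase. Of 14 tested genes of such haem proteins and their partners, 0 were called and 3 had an unadjusted p under 0.05 in limma, all with a positive log2 difference. They were Ptgs1, a cyclooxygenase, at 0.92 ± 0.27, the catalase gene Cat at 0.66 ± 0.23 and Cyb5b, an outer mitochondrial cytochrome b5, at 0.41 ± 0.16 (SE; limma adjusted p = 0.160, 0.249 and 0.299). Cyc1, a respiratory chain cytochrome, was at -0.26 ± 0.12 and Cyp11a1, which makes pregnenolone, at -0.07 ± 0.14 (SE; limma adjusted p = 0.395 and 0.859). The median of the list was 0.19.

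Markers of cells that make or carry haptoglobin were looked at beside Hp. Of 19 listed neutrophil genes 9 were on the array, 0 were bright enough to be tested, and no array read any of them above 975.2. Their summed intensity was 2106.7 to 2751.8 in SHR and 1789.7 to 2957.1 in WKY. S100a8 and S100a9, abundant in neutrophils, read at most 146.7 and 224.7 in SHR and 262.3 and 246.9 in WKY. Lcn2 read 406.7 to 808.6 in SHR and 41.9 to 537.5 in WKY. Liver and plasma protein genes other than Hp summed to 9952.8 to 12472 in SHR and 12478 to 14190 in WKY over 19 genes on the array, of which 9 were tested and 0 called (2 at an unadjusted p under 0.05, the Serpina1 and Rbp4 given above). Alb, the albumin gene, read 492.6 to 741.1 in SHR and 507.6 to 652.0 in WKY in its brightest probe set, and Cps1, of the urea cycle, 888.7 to 1139.2 in SHR and 143.6 to 1439.0 in WKY.

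Fat cell genes were below 0 in 12 of 16 tested and above 0 in 4 (median log2 difference -0.43). Summed over the 17 on the array they gave 66802 to 82444 in SHR and 70694 to 149680 in WKY. At an unadjusted p under 0.05 in limma there were 4 of the 16. By adjusted p 2 fell, 0 rose and 14 did not pass, where 1.65% of all genes were called. The 2 were Medag, named for a role in adipogenesis, at -2.21 ± 0.30, and Cfd, the protease adipsin, at -2.00 ± 0.35 (SE; limma adjusted p = 0.0123 and 0.0324). Macrophage and leukocyte genes summed to 20336 to 22572 in SHR and 23901 to 42493 in WKY over 17 on the array. Of 10 tested, 9 were below 0 and 1 above, and 3 had an unadjusted p under 0.05 in limma. The 1 called was Cd74, lower in SHR (-1.76 ± 0.33, SE; limma adjusted p = 0.0429). Endothelial genes gave 0 calls among 8 tested (0 at an unadjusted p under 0.05), with sums of 16978 to 18230 in SHR and 14728 to 22796 in WKY. The 4 of smallest p, Flt1 at 0.31, Thbd at -0.25, Vcam1 at -0.33 and Kdr at -0.19, all overlapped. Among the 17 cortex and medulla genes 12 were below 0 and 5 above, and 7 had an unadjusted p under 0.05 in limma. As for the other lists, nothing is read from the count at an unadjusted p. By adjusted p 1 of 17 fell, Dbh, which makes noradrenaline (-1.29 ± 0.15, SE; limma adjusted p = 0.00548). Of these 4 calls, 0 held with the hybridization run as a block, and with each array left out in turn Dbh passed in 6 of 6 fits, Medag in 5, Cfd in 1 and Cd74 in 1. In no marker list did any marker read 0 on any array, and the part of other cell types in the Hp difference was not tested.

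The genes of closest pattern were found by the root mean square difference of centred log2 values over the 6 arrays. This was done for the brightest probe set of Hp, of Hmox1, of Hmox2 and of beta globin, so not for the Hbb and Hbb-b1 probe sets. Only tested probe sets naming a single gene were compared, which leaves out the shared alpha globin one. For Hp they were Pdyn (0.222), the dynorphin precursor, Scp2 (0.283), a sterol carrier, and Idh1 (0.295), the cytosolic isocitrate dehydrogenase. The Pdyn probe set read 10071.1 to 11522.8 in SHR and 2880.8 to 3001.4 in WKY. For the brighter Hmox1 probe set the closest were Slc3a2 (0.079), the heavy chain of amino acid transporters, Ppt1 (0.095), a lysosomal thioesterase, and Trappc6b (0.097), of vesicle transport. Slc3a2 read 13727.2 to 14793.4 in SHR and 8565.3 to 9307.3 in WKY. Closest to Hmox2 (J05405mRNA_s_at) were Git1 (0.198), Homer2 (0.201) and Irf1 (0.206), all of which shared the low value of SHR replicate 3. Closest to the joint beta globin probe set were Gnb1 (0.041), Capg (0.046) and Grpel1 (0.059).

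Of the technical measures, the deposited values had been scaled to a trimmed mean of 2504 on every array. The ratio of 3' to 5' signal of the hexokinase control, which rises as RNA degrades, was 4.21 in SHR replicate 2 and 1.96 to 2.54 on the other arrays. The GAPDH ratio did not set that array apart, at 0.947 against 0.901 to 1.136 on the others. Without SHR replicate 2 the log2 difference of Hp was 1.93 and that of Hbb -0.96. For Hmox2 it was then -1.025 in J05405mRNA_s_at and -0.08 in U05013_at. Between pairs of arrays, log2 values correlated over probe sets (not independent of each other) at 0.911 to 0.929 across the strains and 0.935 to 0.956 within one.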

How the data were processed

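Total RNA of whole adrenal glands was read on 6 Affymetrix RG-U34A arrays, 3 per strain, grouped and numbered by sample title. The authors deposited 1 linear intensity per probe set and array. For its algorithm and scaling step, nothing is given in the sources used here. A settings file per array, also deposited (other values), gave the hybridization clock times and the fluidics modules, per the file headers. The times were split into runs at a gap of over 60 minutes.

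Probe sets were named by the platform annotation and genes by RefSeq (GRCr8). After 59 control probe sets were removed, intensities were used as log2(intensity + 181.5), the 20th percentile of values above 0. Probe sets with a mean above the 40th percentile were tested, 5244 of 8740, by limma 3.58.1 in R 4.3.3 (lmFit, eBayes with trend, two-sided), with Benjamini-Hochberg adjustment over all of them and no covariate. The number of arrays limits the precision. A gene with several probe sets was represented by the brightest, and one shared by several genes stood for none.

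The members, lists and alternatives were chosen with earlier results of these data known. All member probe sets were named. From each list the called genes, or otherwise up to 4 of smallest p, were named, with a set of haem, iron and acute phase genes where measured and the 3 nearest patterns. Star, Cyp11a1, Slc4a1, Hspa1a, Gclc, Gstm1, Taldo1, Por and the other globins were added after their values were seen. Red cell, neutrophil, leukocyte, fat, liver, endothelial and adrenal markers were listed. The steps were tested on simulated data. Figures were drawn with matplotlib 3.10.9 in Python 3.11.15.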

Additional observations from a re-analysis of the deposited data

How the results depend on the processing

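With 3 arrays a strain, precision is limited by the number of arrays. All 8 member probe sets kept the sign of their difference under all 18 alternatives (17 for the dimmer Hmox1 and Hmox2 probe sets, which the filter at the 60th percentile removed). The Hp difference, on which that gene was chosen, lay between 1.63 and 1.96.

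The count of called probe sets, 102 as reported, was 60 without an intensity trend, 53 with the replicate number as a block (replicate block), 20 with a block for the hybridization run, 1 in the first run alone, 46 with a block for the fluidics module and, leaving out single arrays, 36 to 59. The 7 listed genes called became 4, 0, 0 and 4 under those 4 fits with a block or 1 run, and 3 to 8 with each array left out. The called member probe set became 0 with the run as a block or the first run alone, 2 with the module as a block, and 1 to 3 with each array left out (3 without WKY replicate 3). The run block and the first run leave 1 SHR array in the contrast, and the module block 4 arrays, which tends to lower counts. The lone SHR array is assumed to vary like the others. The 4 arrays of the module block are SHR replicates 2 and 3, of the second run, and WKY replicates 1 and 2, of the first. In that fit strain and run cannot be told apart, and WKY replicate 3 adds nothing to the contrast. The replicate block changed no call among the members. Same-numbered arrays did not deviate together (correlations 0.001, 0.010 and 0.071), so numbers were not taken as pairs.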
